A study of Oryza sativa with 6 samples.

Results

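HD-Zip homeobox genes encode plant transcription factors that join a DNA-binding homeodomain to a leucine zipper, through which the proteins pair. The 5 genes described here are ROC1, Roc2 and Roc3 of class IV, Hox22 of class I and hox32 of class III. They were taken by their probe set identifiers, 1 probe set for each gene, from 57258 probe sets that are not controls. Each of the 5 genes had this 1 probe set alone in the platform annotation. Other lists hold 34 HD-Zip genes with a named probe set, of all 4 classes and the 5 included.

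As background, class IV genes are known for their activity in the outermost cell layer, where they take part in setting the identity of the epidermis. ROC1 is a rice relative of the Arabidopsis gene GLABRA2, active in the surface layer of the embryo. Class III genes set the upper side of the leaf and act in meristems and vascular tissue, and a microRNA, miR166, cuts their transcripts. Class I genes, Hox22 among them, are known from responses to drought and abscisic acid.

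RNA came from rice seedlings of the japonica variety, grown in artificial soil to the age of 3 weeks. The wild type was compared with Epi-df, with 3 arrays in each group that the labels call biological replicates. Epi-df is a dwarf line, known for an allele of the Polycomb gene FIE1 that differs in its epigenetic state and not in its sequence, and no other allele or treatment is named in the labels. The labels do not say how many plants gave the RNA of an array, and a whole seedling mixes epidermis, leaf, stem base and any root tissue sampled. In such bulk RNA, fewer cells of a type and less RNA per cell cannot be told apart. The values are probe set intensities on a linear scale, each written below as mean ± SD of 3 arrays, and the number of arrays limits their precision.

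The arrays were alike in level, with median intensities of 108.1 to 114.5. Log2 values correlated across probe sets, which are no independent replicates, with Pearson's r of 0.989 to 0.994 within groups and of 0.982 to 0.992 between them. Genes of the leaf were bright in all arrays: the summed intensity of 11 probe sets for leaf markers was 103058 to 109886 in the wild type and 102073 to 129067 in Epi-df. Of the 8 root markers, 5 had a probe set, and their sum was 831.2 to 961.5 in the wild type and 924.1 to 1206 in Epi-df. The leaf probe sets came from 4 of 7 leaf symbols. By the rule given below for the 5 genes, none of the 11 leaf or 3 tested root probe sets was called changed. The share called over all tested probe sets was 0.614%. All 3 probe sets with the name LHCP, for chlorophyll-binding proteins, were higher in Epi-df without overlap, with log2 changes of 0.28 to 0.64 (limma adjusted p = 0.0308 to 0.0873). Not all of them also carry the name CAB2R, so they may be of different genes. The one with the lowest adjusted p can cross-hybridise by its suffix. The root silicon transporter gene LSI1 was higher without overlap too, at 0.44 ± 0.14 (limma adjusted p = 0.184). Groups were free of overlap in 19.6% of all tested probe sets. The leaf probe sets of RBCS and RCA overlapped between the groups, at log2 changes of -0.18 to 0.12, and the leaf median was -0.003. The root genes SHR1 and SCR1 overlapped too, at 0.19 and 0.12, and LSI2 and IRT1 were too dim to be tested. None of the epidermis markers fixed for this check had a named probe set. Actin signal at the transcript's 3' end over that at its 5' end was 13.8 in Epi-df replicate 1 and 7.72 to 10.7 in the other arrays. For the brighter GAPDH pair this ratio was 2.11 in Epi-df replicate 1 and 1.63 to 2.33 in the others. For a dim GAPDH pair, whose 3' probe set was at 56.4 to 74.3, it was 2.33 in Epi-df replicate 3, 2.19 in Epi-df replicate 1 and 1.55 to 1.88 in the others.

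Setting Epi-df against wild type asks whether the transcripts of these HD-Zip genes differ between the lines in seedlings. None of the 5 genes was called changed, where a call needs both a 2-fold change or more and a limma p, adjusted by Benjamini-Hochberg over 34355 tested probe sets, under 0.05 in a two-sided test. Of all tested probe sets 0.614% were called. Their log2 changes lay between -0.25 and 0.15, on the scale of log2(intensity + 16), and the 95% intervals of all 5 together ran from 0.714-fold to 1.38-fold, so none of these intervals reached a 2-fold change. At an unadjusted p under 0.05 there was 1 gene of the 5, Roc2, against 14.4% of all tested probe sets. In none of the 5 were the groups free of overlap, which was so for 19.6% of all tested probe sets.

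**Figure D1:**
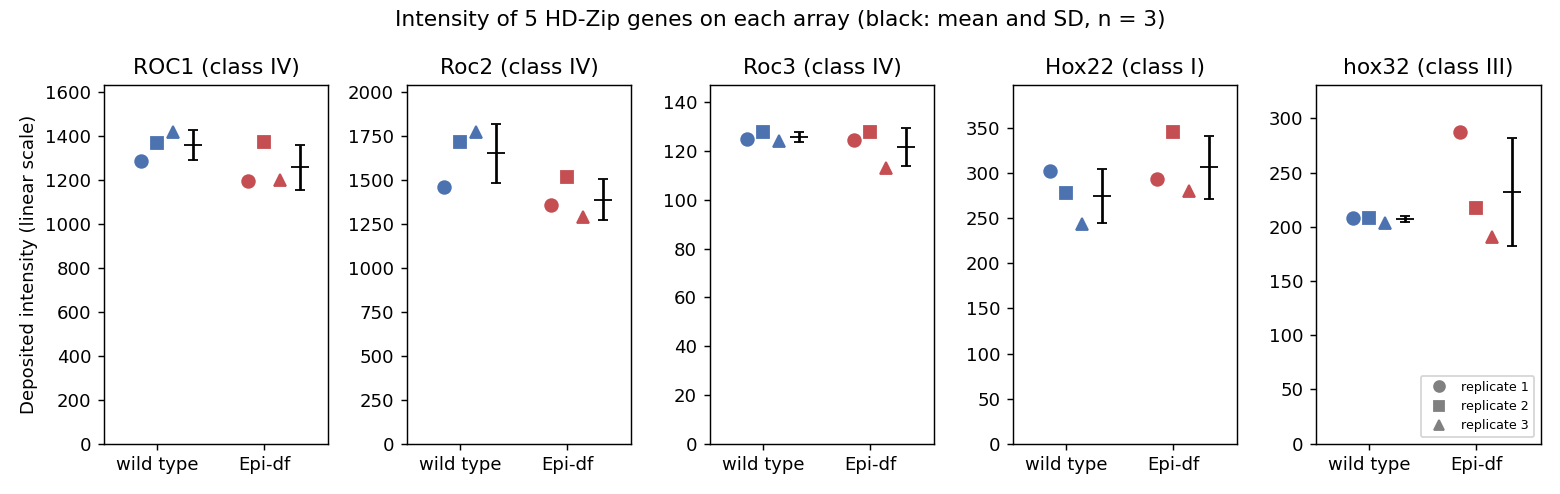
Deposited intensity of ROC1, Roc2, Roc3, Hox22 and hox32 on each array, on linear axes that start at 0. Circles, squares and triangles are replicates 1, 2 and 3, and the black marks are the mean and SD of 3 arrays. The groups overlap in every panel, and hox32 is spread in Epi-df, from 190.67 to 287.6, while its wild type arrays lie between 203.82 and 208.37.

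ROC1 had intensities of 1284, 1369 and 1418 in wild type replicates 1 to 3 and of 1196, 1373.5 and 1199 in Epi-df replicates 1 to 3. Epi-df replicates 1 and 3 lay below all wild type arrays, and Epi-df replicate 2 lay among them. The means were 1357 ± 67.8 and 1256 ± 102, a log2 change of -0.11 ± 0.09 (SE, limma adjusted p = 0.663). Of all tested probe sets, 43.7% had a change at least as large in either direction.

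Roc2, of the same class as ROC1, showed a like pattern with a wider spread. It stood at 1464, 1717 and 1776 in the wild type and at 1359, 1518 and 1293 in Epi-df. Wild type replicate 1 was below Epi-df replicate 2, so the groups overlapped by these arrays. The means were 1652 ± 166 and 1390.0 ± 116, which is 0.841 of the wild type. The log2 change of -0.25 ± 0.10 had a 95% interval from -0.49 to -0.0051 and did not pass the test (limma adjusted p = 0.334). This was the largest change of the 5 genes, and 17.4% of all tested probe sets changed at least as much. ROC1 and Roc2 lay on the same side of their own mean in 6 of 6 arrays, and the other pairs of members in 2 or 4. In Epi-df replicate 2, Roc2 was only 0.006 above its log2 mean.

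Roc3, the third class IV gene, had the most even values of the 5. It was at 125.13, 127.91 and 124.04 in the wild type and at 124.56, 127.79 and 112.85 in Epi-df. Epi-df replicate 3 alone was low, and the other Epi-df arrays lay within the wild type range. The means were 125.7 ± 2.00 and 121.7 ± 7.86, with a log2 change of -0.04 ± 0.08 (limma adjusted p = 0.883). Without Epi-df replicate 3 the log2 change was 0.0049. Its probe set was dim, not far above the mean intensity of 81.1 that the filter asked for, and no detection calls were used, so a change in its transcript could be understated.

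Hox22 went the other way in its mean. It was at 302.44, 278.27 and 243.23 in the wild type and at 293.52, 346.04 and 280.27 in Epi-df. Epi-df replicate 2 was above all wild type arrays, and wild type replicates 2 and 3 were below all Epi-df arrays. Wild type replicate 1 lay above the other Epi-df arrays, so the groups overlapped by this array. The means were 274.6 ± 29.8 and 306.6 ± 34.8, a log2 change of 0.15 ± 0.12 (limma adjusted p = 0.665). The change was 0.07 when wild type replicate 3 was left out and 0.06 when Epi-df replicate 2 was.

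The class III gene hox32 had wild type intensities of 208.37, 208.33 and 203.82, which differed by little. The Epi-df arrays stood at 287.6, 217.32 and 190.67, on both sides of the wild type. The means of 206.8 ± 2.62 and 231.9 ± 50.1 gave a log2 change of 0.13 ± 0.14 (limma adjusted p = 0.768). Without Epi-df replicate 1 the change was -0.02, and without Epi-df replicate 3 it was 0.26 (limma adjusted p = 0.949 and 0.394). The SD of its log2 values in Epi-df was 16.7 times that in the wild type, against a median ratio of 1.24 over all tested probe sets. Its residual SD was higher than that of 80.7% of the tested probe sets.

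**Figure D2:**
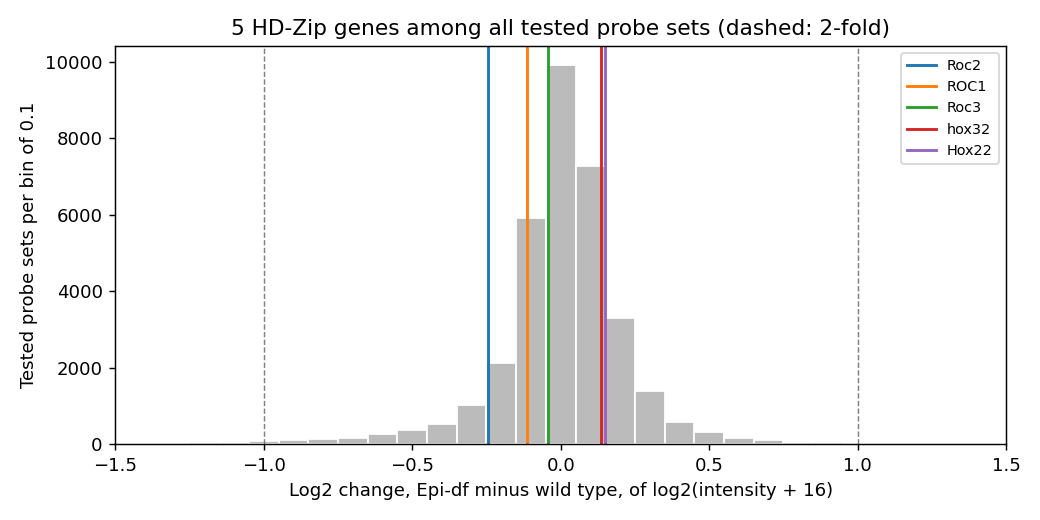
Histogram of the log2 change (Epi-df minus wild type) of all 34355 tested probe sets in bins of 0.1, drawn between -1.5 and 1.5, with the changes of the 5 HD-Zip genes as vertical lines. The 5 lines lie between -0.25 and 0.15, inside the bulk of the distribution and far from the dashed 2-fold lines.

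The 5 genes were then set beside their own classes. Of 41 HD-Zip symbols, 34 had a named probe set and 27 passed the filter on low intensity, and 0 of the 27 were called (limma), against 0.614% of all tested probe sets. At an unadjusted p under 0.05 there were 2 of the 27, Roc2 and HOX8, against 14.4% of all tested probe sets. The change was positive in 18 and negative in 9, with a median log2 change of 0.08, against 0.01 over all tested probe sets, of which 53.9% were positive. Without wild type replicate 1 the median was -0.01, with 13 positive and 14 negative.

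In class IV, ROC1, Roc2 and Roc3 were lower in mean and ROC4, ROC5 and ROC6 higher, none of them called. ROC5, known from the control of bulliform cells and leaf rolling, went from 2251 ± 152 to 2542 ± 206 (log2 change 0.17 ± 0.09, limma adjusted p = 0.458). ROC6 went from 968 ± 83.3 to 1084 ± 110 (log2 change 0.16 ± 0.10). ROC4 had the highest change of the class, 0.32 ± 0.19, from a low level of 107.6 ± 30.5 (limma adjusted p = 0.522). The signs therefore differed within the class, but each of these changes was too small against the spread of the arrays to pass.

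In class I, 8 of 10 tested genes were higher in mean, with a median log2 change of 0.21, and none was called. Hox22 lay under this median. The highest was HOX8, at 84.77, 58 and 92.51 in the wild type and at 129.43, 130.26 and 136.87 in Epi-df, without overlap. Its log2 change of 0.67 ± 0.14 did not pass (limma adjusted p = 0.0666), and its probe set can cross-hybridise by its suffix. Its wild type mean of 78.4 lay under the filter level of 81.1, so it was tested only through its Epi-df values and its change is no support for a change of the class. HOX21 had the lowest change of class I, -0.23 ± 0.10 (limma adjusted p = 0.354), on a probe set that can cross-hybridise as well. In HOX8, HOX4 and HOX21, 3 of the 10, the groups were free of overlap, against 19.6% of all tested probe sets. Without wild type replicate 1, 6 of the 10 were higher. In class II, 3 of 7 genes were higher and 4 lower, between HOX15 at -0.16 ± 0.19 and HOX2 at 0.12 ± 0.13.

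**Figure D3:**
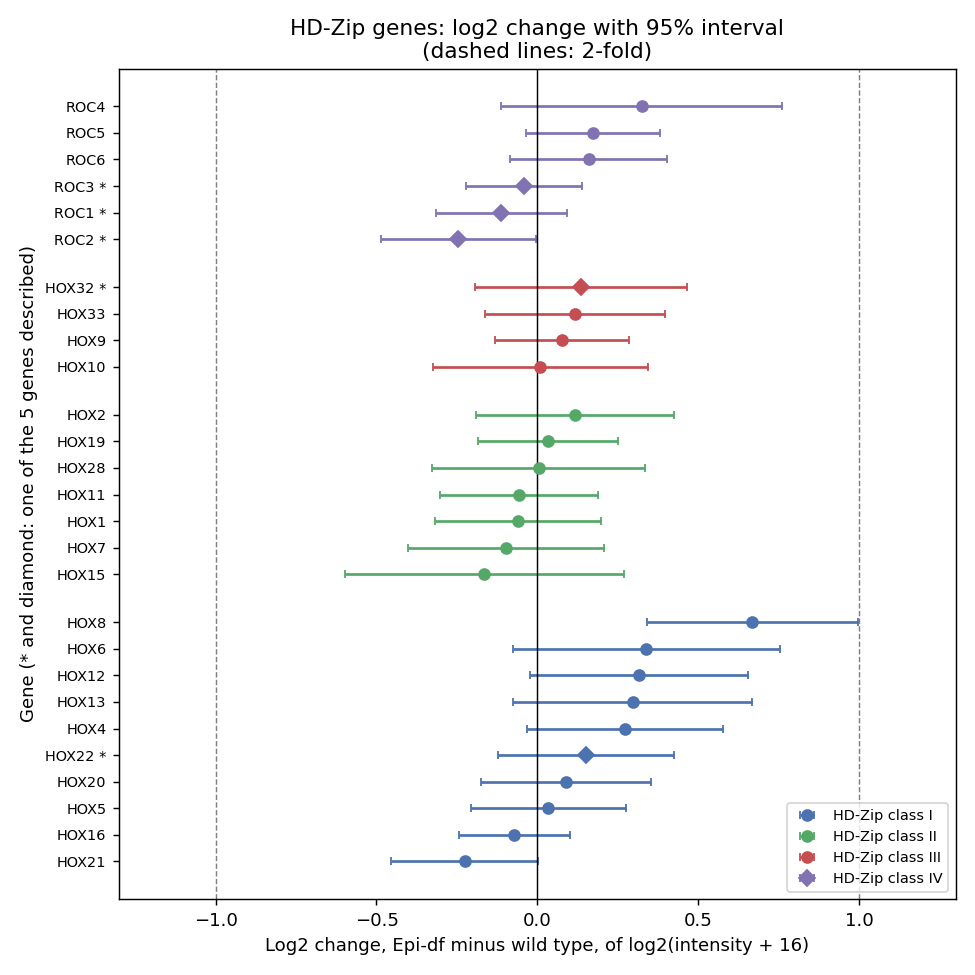
Log2 change (Epi-df minus wild type) of 27 tested HD-Zip genes with 95% intervals from the limma fit, grouped by class. Diamonds and stars mark the 5 genes described, and dashed lines mark a 2-fold change. HOX8 has the highest change, 0.67, and Roc2 the lowest, -0.25.

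The class III genes shared an order of the arrays that their mean changes do not show. In 4 of 4 tested genes, hox32, HOX9, HOX10 and HOX33, Epi-df replicate 1 was the highest of the 6 arrays and Epi-df replicate 3 the lowest. This order was found in 3.44% of all tested probe sets and in 0 of the tested genes of the other classes. HOX10 was at 1175, 1207 and 1266 in the wild type and at 1474, 1270.2 and 978.5 in Epi-df. HOX33 was at 885.7, 892.3 and 966.9 and at 1124, 1045 and 833. HOX9 was at 1019.5, 1044 and 1054 and at 1209.7, 1087 and 1002. A dimmer tested probe set of HOX10 lacked the order, at 95.31, 92.78 and 80.93 in the wild type and 88.34, 97.87 and 88.52 in Epi-df. HOX29, the class III gene too dim to be tested, lacked it as well. It was at 57.07, 63.6 and 60.76 in the wild type and at 77.82, 63.63 and 70.71 in Epi-df.

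Averaged over these 4 genes, the log2 deviation from each gene's mean was 0.27 in Epi-df replicate 1, 0.05 in replicate 2 and -0.19 in replicate 3, while the wild type arrays lay between -0.07 and -0.0075. The SD of the log2 values in Epi-df was 5.48 times that in the wild type for HOX9, 5.46 times for HOX10 and 3.21 times for HOX33. It was 4.12 times for Roc3 of class IV and 2.62 times for HOX7 of class II. A ratio above 2 was found in 27.8% of all tested probe sets. The median log2 change of class III was 0.10 with all arrays, with 4 of 4 positive. It was -0.0077 without Epi-df replicate 1, with 2 of 4 positive, and 0.205 without Epi-df replicate 3. The order was noticed in these data and is given as a description.

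**Figure D4:**
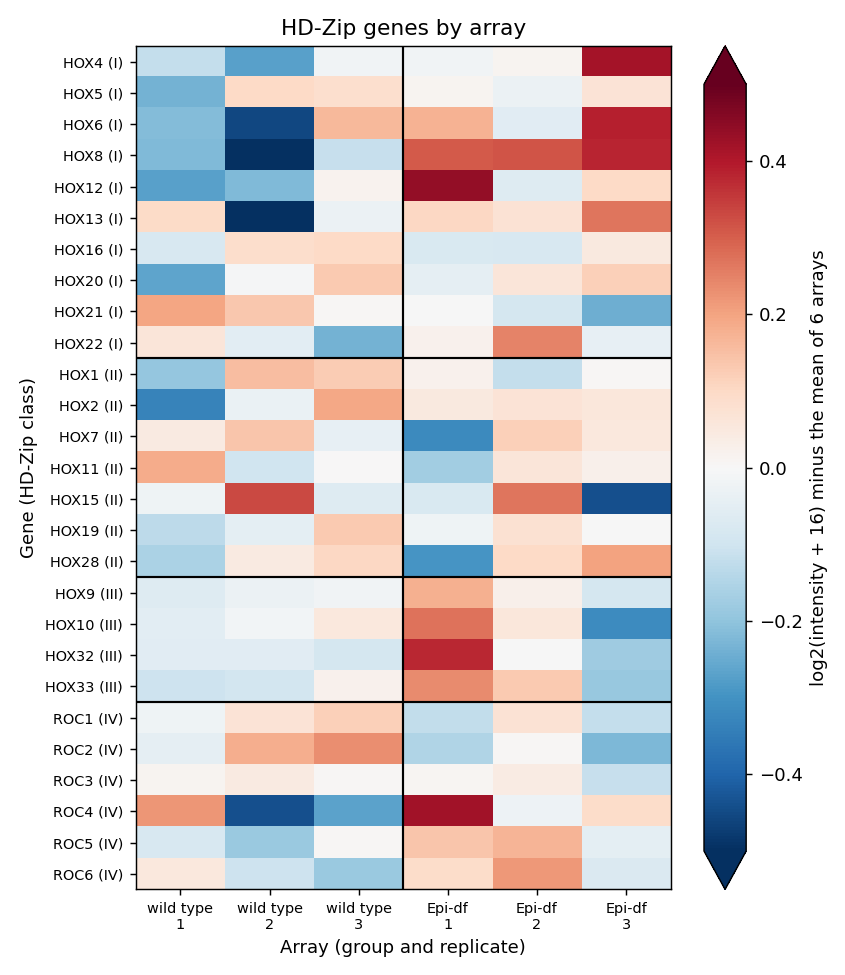
Log2(intensity + 16) of 27 HD-Zip genes on each array, as the deviation from the gene's mean over 6 arrays, with red for higher and blue for lower and the colour scale ending at 0.5 in both directions. In Epi-df, the 4 class III genes stand above all other arrays in replicate 1 and below all others in replicate 3.

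Markers of the meristem were measured beside class III. OSH1, a KNOX homeobox gene that marks the shoot meristem, was at 21.24, 13.55 and 30.18 in the wild type on its brighter probe set and at 268.21, 17.56 and 18.75 in Epi-df. It was thus high in Epi-df replicate 1 alone, and its mean was too low for it to be tested. The 4 probe sets for meristem markers, 3 of the 5 symbols, summed to 132.0 to 238.6 in the wild type and to 251.9 to 814.9 in Epi-df. This sum holds both probe sets of OSH1, and WOX4 differed little, with 93.1 ± 4.49 in the wild type and 95.3 ± 7.16 in Epi-df. In Epi-df replicates 2 and 3, with OSH1 at wild type level, the higher sum lay mainly in OSH71, at 134.61 and 196.96. The part of meristem tissue, or of the 3' to 5' ratios given above, in the order of the class III genes was not tested.

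By the distance between profiles, the root mean square difference of log2(intensity + 16) over the 6 arrays after centring, the nearest named genes were sought among 2703 tested probe sets with a gene name. For hox32 they were the sucrose transporter gene SUT2, at a distance of 0.036, and PNH1, an Argonaute gene known from leaf formation, at 0.043. PNH1 was at 499.4, 492.5 and 481.1 in the wild type and at 650.8, 520.0 and 485.5 in Epi-df. Its peak in Epi-df replicate 1 follows from its choice by likeness to hox32. Including unnamed ones, 8 tested probe sets were at least as near to hox32 as PNH1. For Hox22 the nearest were the cysteine protease gene CP1, at 0.040, and ROC6, at 0.045.

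For ROC1 they were IRL4, of a family of leucine-rich repeat proteins, at 0.039, and the zinc transporter gene ZIP3, at 0.047. For Roc2 they were SPX4, of phosphate signalling, at 0.060 and the heat shock factor gene HSFC1B at 0.063. For Roc3 they were RFC1, of the replication factor C complex, at 0.018, and the Tubby-like gene TLP14 at 0.020. With 6 arrays, near profiles are common among flat genes: 73 tested probe sets were at least as near to ROC1 as ZIP3. None of these 10 genes was called, against 0.614% of all tested probe sets, and they were chosen for likeness to uncalled genes.

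Other homeobox genes, and genes listed for leaf polarity, the epidermis and abscisic acid, were counted from lists. These lists were chosen with earlier results of these data known, so their shares against all tested probe sets are descriptions only. Of 7 tested KNOX genes, which keep meristem cells undifferentiated or, in the other KNOX class, act in mature tissue, 0 were called, against 0.614% of all tested probe sets. At an unadjusted p under 0.05 there were 4, OSH71 among them (limma), against 14.4%. OSH71 had the highest change, at 28.2, 25.88 and 90.63 in the wild type and 233.41, 134.61 and 196.96 in Epi-df. Its log2 change of 1.78 ± 0.36 missed the threshold (limma adjusted p = 0.0614), and without wild type replicate 3 it was 2.22 and called (limma adjusted p = 0.0126). Its wild type mean of 48.2 lay under the filter level, so it too was tested only through Epi-df, and the size of its change rests on a low level. HOS66 had the lowest, -0.43 ± 0.25, and it was -0.75 without wild type replicate 3, in which it was below the other wild type arrays. OSH45 was at -0.39 ± 0.09 (limma adjusted p = 0.0834). Of 3 tested WOX genes none was called, against the same 0.614%, and 1 had an unadjusted p under 0.05 (limma), against 14.4%. This was QHB, with a log2 change of 0.22 ± 0.07 and a wild type mean of 74.6, again under the filter level. WOX4 was at 0.03 ± 0.08.

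Genes were listed for leaf polarity by what is known of them or of their relatives. Whether they act with class III genes in rice was not tested. Of 13 tested, 1 was called (limma), YAB1, a YABBY gene, which is 7.69% against 0.614% of all tested probe sets. YAB1 fell from 1046, 1283 and 1328 in the wild type to 732, 555 and 434.1 in Epi-df (log2 change -1.09 ± 0.19, limma adjusted p = 0.0356). The call was lost in 5 of the 6 fits that left out 1 array, with adjusted p up to 0.136. The probe set of YAB1 can cross-hybridise by its suffix. Another for this gene was too dim to be tested, at 21.3 ± 2.88 in the wild type and 17.7 ± 5.16 in Epi-df. YAB2 was at 1587, 1465 and 1655 in the wild type, and its Epi-df arrays stood at 1023, 858.3 and 842.8. Its log2 change, -0.78 ± 0.10, stayed under 2-fold (limma adjusted p = 0.0134). AS2, whose relative in Arabidopsis acts on leaf symmetry, went from 263.7 ± 16 to 396.9 ± 15.1 (log2 change 0.56 ± 0.09, limma adjusted p = 0.0239). By its suffix, the probe set of AS2 can cross-hybridise too.

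YAB3, a YABBY gene needed for leaf growth in rice, was at 114.78, 151.62 and 181.02 in the wild type and at 433.27, 395.36 and 242.19 in Epi-df. The groups did not overlap, and its log2 change of 1.16 ± 0.23 missed the threshold (limma adjusted p = 0.0607). With the third Epi-df array left out, YAB3 was at 1.40 and called (limma adjusted p = 0.0212), and without another single array it was not, with adjusted p up to 0.211. It was highest in Epi-df replicate 1 and, within Epi-df, lowest in replicate 3, as hox32 was. YAB4, AS2 and RS2 of the same list had this pattern too. SGS3, on its brighter probe set, and the root gene SHR1 had the full order of the class III genes. That full order was found in 3.44% of all tested probe sets, and the share with the looser pattern was not counted. The remaining tested polarity genes lacked both. Apart from YAB1, no tested polarity gene was called.

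**Figure D5:**
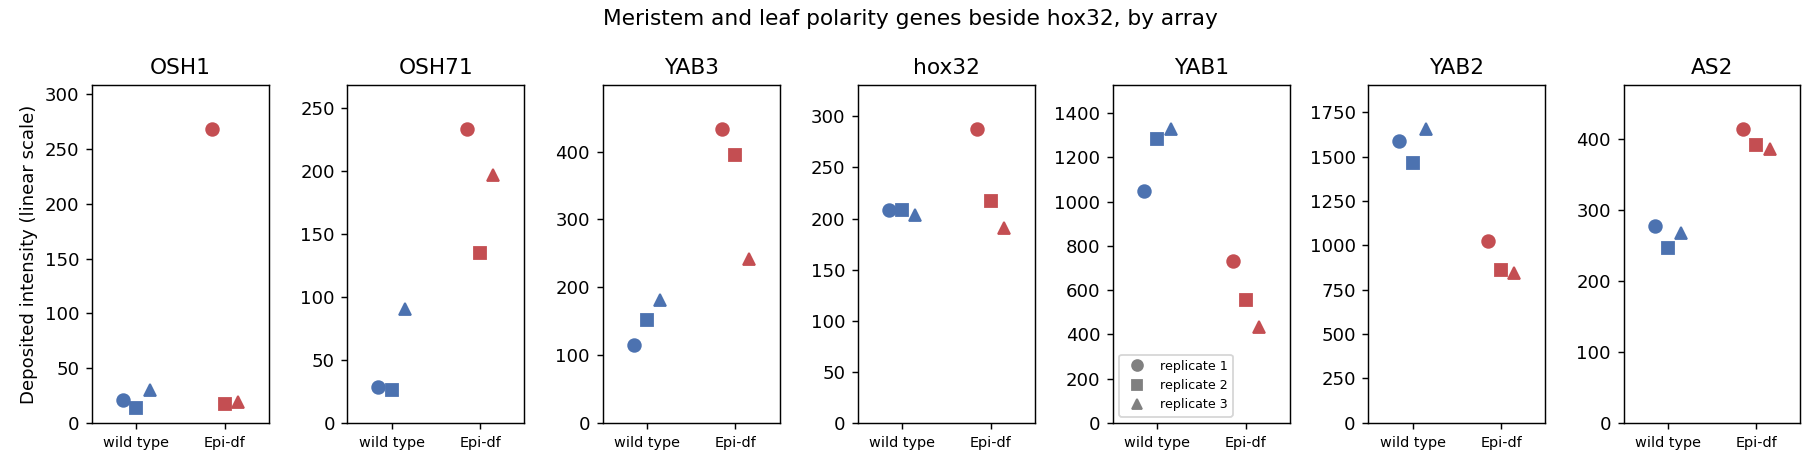
Deposited intensity of OSH1 (brighter probe set), OSH71, YAB3, hox32, YAB1, YAB2 and AS2 on each array, on linear axes that start at 0, with circles, squares and triangles for replicates 1, 2 and 3. OSH1 is high in Epi-df replicate 1 alone, at 268.21, and the groups do not overlap in OSH71, YAB1, YAB2, YAB3 and AS2. Of the 13 tested polarity genes, 2 were higher and 2 lower without overlap, against 19.6% of all tested probe sets in either direction. The polarity genes with overlap are not drawn, and YAB2, YAB3 and AS2 were picked after their values were seen.

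For the epidermis, in which class IV genes act, 2 of 40 listed symbols had a named probe set. LTP110-A, a lipid transfer protein gene, went from 7410 ± 653 to 9185 ± 443 (log2 change 0.31 ± 0.08, limma adjusted p = 0.120). The other, WSL3, is a symbol that a white stripe leaf gene also carries, so it may not be a wax gene, and its log2 change was 0.12 ± 0.14. Around Hox22, 25 genes of abscisic acid and dehydration were tested, of which 0 were called higher, against 0.178% of all tested probe sets, and 2 lower, against 0.437%. These were the cold response factor gene DREB1A (log2 change -1.16 ± 0.19, limma adjusted p = 0.0304) and the kinase gene SAPK9 (log2 change -1.04 ± 0.12, limma adjusted p = 0.00910). Leaving out 1 array lost the call of DREB1A in 5 of 6 fits and that of SAPK9, through the fold threshold, in 2. The probe set of SAPK9 can cross-hybridise by its suffix. Of the 25, 9 were higher and 16 lower in mean, with a median log2 change of -0.09.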

How the data were processed

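Biotin-labelled cRNA, made from total RNA, was measured on Affymetrix rice arrays, per the labels' protocols. The deposited values are probe set intensities on a linear scale from the authors' MAS5 run, as the submitters' processing notes name it. The version, the scaling target and detection calls are not given in the sources used here, and no slide or scan date was used. Of 57381 probe sets, 123 are controls.

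Groups and replicate numbers came from the titles. After a pseudocount of 16, log2 intensities were fitted in limma 3.58.1 under R 4.3.3 (eBayes with an intensity trend, no replicate block), over 34355 probe sets whose mean reached the 40th percentile. The pseudocount shrinks the changes of dim probe sets. A log2 change is given ± its SE. The fit was tested on simulated data. Same-numbered arrays of the groups deviated with correlations of 0.13, 0.33 and -0.06, against -0.30 to 0.13 for arrays of different numbers. These values do not settle whether the numbers are pairs, and the main fit did not take them as such.

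Gene names came from GEO's platform annotation, updated with a table of RefSeq genes (ASM3414082v1): 22436 had 1 gene, 95 several, and the rest are unnamed here. Counts took each gene by its brightest probe set. By their suffix, those used for HOX7, HOX15, OSH1, SPX4 and TLP14 can also cross-hybridise. Members and lists were chosen with earlier results of these data known. By rule, the text names the members, up to 4 called genes of each list or else its highest and lowest change, and the 2 nearest profiles of each member. The leaf and root markers in the text were named after their values were seen. So were HOX4, HOX7, HOX9, HOX29, HOX33, ROC5, YAB2, YAB3, YAB4, AS2, RS2, SGS3, OSH1 and OSH45.

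Alternatives were other pseudocounts, filters, scalings, spread models and fold thresholds, array weights, a replicate block and leaving out each array. Medians of the HD-Zip classes under these were added after seeing the data. No sequences were used here.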

Additional observations from a re-analysis of the deposited data

How the results depend on the processing

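No member was called in any of the 79 alternatives run for the 5 members, where the lowest adjusted p was 0.262, and 77 kept the sign. When 1 array was left out, the log2 change ran from -0.18 to -0.08 for ROC1, from -0.33 to -0.19 for Roc2, from -0.074 to 0.0049 for Roc3, from 0.06 to 0.22 for Hox22 and from -0.021 to 0.26 for hox32. Roc3 was positive without Epi-df replicate 3 and hox32 negative without Epi-df replicate 1. Roc3 was not among the probe sets of the stricter filter.

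The 211 probe sets called (61 higher, 150 lower) became 324 with a replicate block, in which no member was called and Roc2 stayed at -0.25 (limma adjusted p = 0.266). The numbers are not taken to pair the arrays. It was 614 without a fold threshold and 494 at 1.5-fold, and ran from 117 without wild type replicate 1 to 261 without wild type replicate 3, with 122 without wild type replicate 2.

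With 1 array left out, signs turned for HOX2 (-0.021 to 0.24), HOX15 (-0.34 to 0.014), HOX10 (-0.12 to 0.17), WOX4 (-0.018 to 0.075), WSL3 (-0.037 to 0.21), TLP14 (-0.081 to 0.0011) and SUT2 (-0.013 to 0.22). They also turned for the medians of class II (-0.079 to 0.038), class III (-0.0077 to 0.205) and all HD-Zip genes (-0.0145 to 0.12). OSH71 was called with no filter, array weights or the replicate block (limma adjusted p = 0.0484, 0.0421 and 0.0289), and YAB3 with no filter or array weights (0.0484 and 0.0397). No cause of these shifts was tested.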

Other observations

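Of the protein-coding genes within 2 places of each member in the RefSeq gene table, those paired with a probe set were read for their change. None of these few was called, against 0.614% of all tested probe sets. The second gene beyond Hox22, LOC9272389, chosen after its values were seen, had intensities of 893.3 ± 119 in wild type arrays and 358.5 ± 177 in those of Epi-df (log2 change -1.38 ± 0.31, limma adjusted p = 0.0801), and its other probe set, which can cross-hybridise, had a log2 change of -1.39 ± 0.32. The gene next to Hox22 on that table's other side, LOC4336541, had a log2 change of 0.02 ± 0.10.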
